A study of Arabidopsis thaliana with 11 samples.

Results

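The genes described here are 113 Arabidopsis genes that ChIP-Seq found near a bZIP1 peak in both of its replications. Of 850 genes on the list of replication 1 and 431 on that of replication 2, 300 were on both, which is 35.3% of the first list and 69.6% of the second. A gene was taken when the annotation of the array platform pairs it alone with a probe set whose values varied over the arrays. That held for 113 of the 300, all from 11767 genes named in this way. A further 186 were not measured here, and 1 was left out because it was 1 of 6 genes set aside by the rule. Of these 6, 5 are on the replication 1 list, 4 could be read on the arrays and 3 were past the threshold used below, but none of the 4 is on both lists. Beyond that variation, and the choice of the brightest probe set of a gene, the array values did not decide which genes were taken. The rule itself was set with earlier results of these data known. Since the annotation names mostly genes that are known by a locus code alone (98 of the 113), many well-known transcription factor genes on both lists are missing from these results, among them all 6 WRKY and all 7 NAC genes of the lists used below.

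bZIP1 is a basic leucine zipper transcription factor that binds DNA elements with an ACGT core and is known for its part in the response of roots and shoots to low energy and to nitrogen. In the TARGET system the factor carries the steroid-binding part of a glucocorticoid receptor (GR), so that it stays in the cytoplasm until dexamethasone is added, and cycloheximide blocks translation so that only the first round of target genes can respond. The base 4-thiouracil (4tU) is built into RNA made while it is present, and that RNA is then pulled down.

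Labeled RNA was measured on 11 ATH1 arrays, of which 6 hold the group 4tU-bZIP1, transfected with 35S::GR::bZIP1, and 5 hold the group 4tU-EV, transfected with a vector for GR alone. The cells of both groups were sorted root protoplasts of Col-0, grown on 1 mM KNO3, and both received the same agents in the same order. Nitrogen came first, as 20 mM KNO3 and NH4NO3 over 1 h 40 min by the sample labels, where the study's methods give a longer time. Cycloheximide was then added at 35 µM, 20 min ahead of the 10 µM dexamethasone, which was given for 5 h. The label, 1.5 mM 4tU beside 0.2 mM uracil, was present for 20 min at the end. The fusion was thus driven by the 35S promoter in transiently transfected cells of mixed root types without walls, and bZIP1 binding had been assayed in other cells than those of the arrays, at the same 5 h. Every array is labelled as a biological replicate.

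Several facts of the arrays bear on what follows. The table is already normalized, the lowest intensity among the features tested is 4.92 on every array, and the highest on each lies between 15748 and 22790. Over all features tested, the median correlation of an array with the other arrays was 0.88 for 4tU-bZIP1 replicate 1 and the highest was 0.97. Of the markers of root cell types only EXP7 and XTH20 could be read, at intensities of 6.17 and 6.42, and of the leaf markers only RCA, at 6.31, so that the tissue could not be checked with them. The probe set of bZIP1 itself was not used here. In bulk RNA of this kind, fewer cells of a type and less RNA per cell cannot be told apart.

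The probe sets of the bound genes were bright in both groups. The median bound gene had an intensity of 2120 in 4tU-bZIP1 and 2483 in 4tU-EV, while the median of the other 11650 named genes was 9.47 in 4tU-bZIP1 and 9.15 in 4tU-EV. Intensities of different probe sets also differ by the affinity of the probes, so that the figures describe where the genes lie on the array and are not amounts of RNA.

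On the log2 scale the median of the mean levels over all arrays was 11.16 for the bound genes and 3.22 for the other named genes. On each of the 11 arrays the same gap was seen, between 7.71 and 8.20. The lowest median of the bound genes on any array was an intensity of 1930 (4tU-bZIP1 replicate 3) and the highest was 2673 (4tU-EV replicate 3), while the other named genes had medians between 8.72 and 9.36. A mean log2 level of at least 5, an intensity of 32, was reached by 104 of the 113 bound genes (92.0%) and by 31.5% of the other named genes. A level of at least 10, an intensity of 1024, was reached by 76 bound genes (67.3%) and by 2.41% of the others.

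Read the other way, bound genes were rare among dim probe sets and made up a large share of the brightest. They were 9 of 7986 named genes under a mean log2 level of 5 (0.113%) and 12 of 2684 from 5 to 8 (0.447%). They were 16 of 736 from 8 to 10 (2.17%), 43 of 292 from 10 to 12 (14.7%) and 33 of 65 at 12 and above (50.8%). Of the 20 brightest named genes 14 were bound in both replications, and of the 100 brightest 41. Genes on 1 list alone lay between. The median log2 level was 8.52 for the 226 genes of replication 1 only, 7.83 for the 53 of replication 2 only and 3.16 for the 11371 on neither list.

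**Figure D1:**
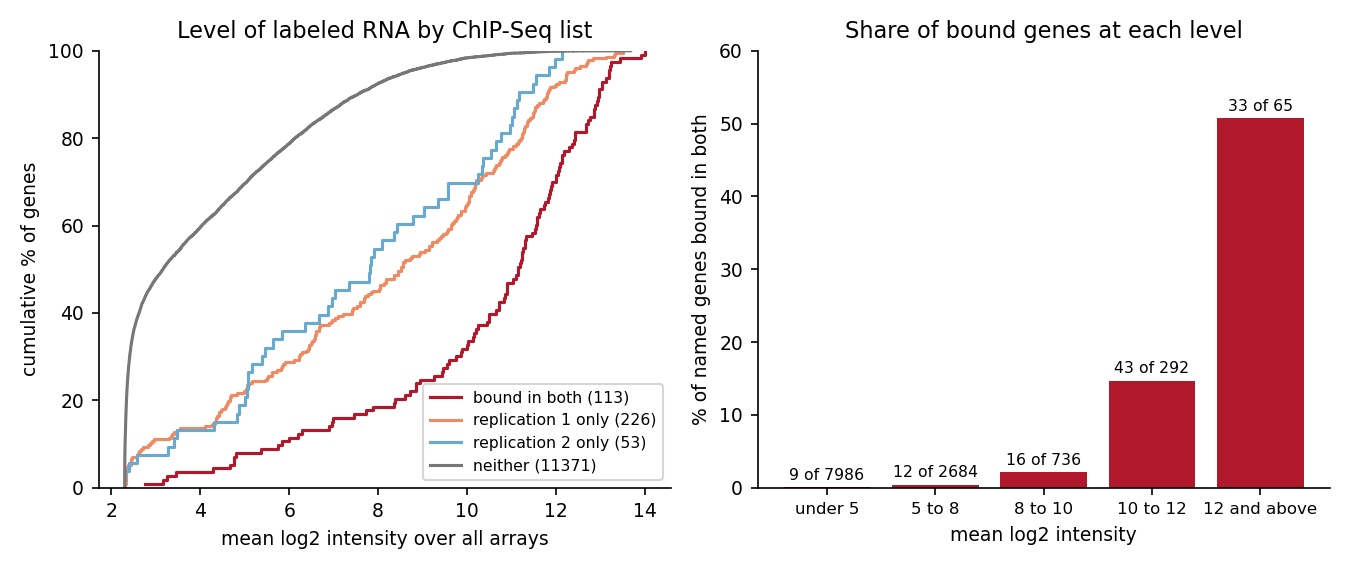
Left, the cumulative percent of named genes against the mean log2 intensity over all arrays, for genes bound in both replications, in 1 of them and in neither. Right, the percent of named genes at each level that are bound in both, with the counts above the bars. The curve of genes bound in both lies furthest to the right, and their share is 50.8% at a mean log2 level of 12 and above.

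The 5 brightest bound genes were GRX480, AT1G19020, AT5G10695, STZ and CML37. GRX480, a glutaredoxin that binds TGA transcription factors in salicylic acid and jasmonate signaling, had the highest mean. Its intensity was 14261 at the lowest, 15857 at the median and 16765 at the highest in 4tU-bZIP1, against 18054, 15748, 16484, 17999 and 18108 in 4tU-EV. The groups overlapped, although 3 of the 6 4tU-bZIP1 arrays lay below every 4tU-EV array. The log2 fold change, 4tU-bZIP1 minus 4tU-EV, was -0.14 ± 0.06 (SE), with an adjusted p of 0.85 from limma and an exact permutation p of 0.041.

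The other genes at the top of the range had log2 fold changes of similar or smaller size. STZ, also called ZAT10, a zinc finger repressor of stress-responsive genes, averaged 9552 ± 563 in 4tU-bZIP1 and 9809 ± 642 in 4tU-EV (SD, n = 6 and 5). The calmodulin-like gene CML37 averaged 9245 ± 967 in 4tU-bZIP1 and 10078 ± 731 in 4tU-EV. The other genes of the brightest 5, AT1G19020 and AT5G10695, have no known function by their annotation, and their log2 fold changes were -0.13 ± 0.08 and -0.11 ± 0.07 (SE). In each of these 4 genes the arrays of the groups overlapped, and the exact permutation p-values lay between 0.13 and 0.51. The 4tU-bZIP1 arrays below every 4tU-EV array were 4 of 6 for CML37 and for AT5G10695, 3 for AT1G19020 and 2 for STZ.

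No bound gene was past the threshold of the comparison in either direction, and changes were small. With limma, at a Benjamini-Hochberg adjusted p under 0.1 over the 19523 features tested, 0 of the 113 bound genes were higher in 4tU-bZIP1, where 0.164% of all features were, and 0 were lower, where 0.0205% were. The smallest adjusted p of a bound gene was 0.49. The counts of bound genes were also 0 in both directions with a one-way test, with a robust prior that follows the mean-variance trend, and with array weights. The study itself took genes found by either a one-way test or Rank Product analysis, and then filtered them. Rank Product and those filters were not run here, so the counts of 0 do not repeat the study's calls. The study reported a significant overlap of its induced genes with stably bound bZIP1 targets of earlier work. Of the 300 genes on both lists 186 were not measured here, so the counts hold for the 113 alone. At such background shares a count of 0 does not set the bound genes apart. A complete separation of the groups, with every 4tU-bZIP1 array above every 4tU-EV array or below them all, was seen in 0 bound genes in either direction, beside 0.405% of all features above and 0.451% below.

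The precision was enough to bound the change of most of them. The 95% interval of the log2 fold change lay within -1 and 1, that is within a 2-fold change either way, in 82 of the 113 bound genes (72.6%), and in 63.3% of the other named genes. Among bound genes at a mean log2 level of at least 12 it did so in all 33, whose median SE was 0.08. None of the 113 had an estimated log2 fold change of 1 or more in size, whereas 314 of the other 11650 named genes had. Among genes at a mean log2 level of at least 10, 0 of 76 bound genes and 2 of 281 others had such a change, and at 12 and above 0 of 33 and 0 of 32. The bound genes ranged from -0.77 for AT5G42830, an acyltransferase family gene, to 0.93 for AT1G76170, a tRNA thiolation family gene with a mean log2 level just above 5 and an SE of 0.78. AT1G76170 read 373 on 4tU-bZIP1 replicate 1, against 16.9 to 112 on the other 4tU-bZIP1 arrays and 14.4 to 44.8 in 4tU-EV.

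Without adjustment, more bound genes were lower in 4tU-bZIP1 than higher. At an unadjusted p under 0.05, 4 of the 113 (3.54%) were higher, where 1.51% of all features were, and 13 (11.5%) were lower, where 3.23% were. The median log2 fold change of the bound genes was -0.08 (quartiles -0.22 and 0.06), with 72 of 113 below 0, and that of the other named genes was 0.00. The 13 rest in part on 4tU-EV replicate 1, on which the bound genes had a median 0.15 above their 4tU-EV mean: without that array 6 were lower. Centring each array on its median, which moved the median of all features to 0.05, gave 8 higher and 8 lower. A fit on features with a mean log2 of at least 5 alone gave 1 higher and 3 lower, and one on replicates 1 to 5 with the replicate number as a block gave 4 and 8. Array weights gave 10 higher and 19 lower. The median of -0.08 was -0.03 without 4tU-EV replicate 1, -0.05 without 4tU-bZIP1 replicate 3, -0.05 with array weights and -0.03 with centring.

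The contrast with other named genes was not seen among genes of like brightness. The 76 bound genes at a mean log2 level of at least 10 had a median log2 fold change of -0.10, against -0.12 for the 281 other named genes at that level. Of these bright genes, 13.2% of the bound and 11.03% of the others were lower at an unadjusted p under 0.05, and 2.63% of the bound and 4.27% of the others were higher. At 12 and above the medians were -0.06 for 33 bound genes and -0.10 for 32 others. In the bins below 10 the medians were 0.04 for 9 bound genes and 0.01 for the others under 5, 0.09 for 12 bound genes and -0.14 for the others from 5 to 8, and -0.07 for 16 bound genes and -0.14 for the others from 8 to 10. The median of the bound genes was thus below that of the others with all levels pooled, and above it in each of the 5 bins of level, 3 of which hold under 20 bound genes. These level limits were chosen after the data were seen, and the differences were not tested.

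**Figure D2:**
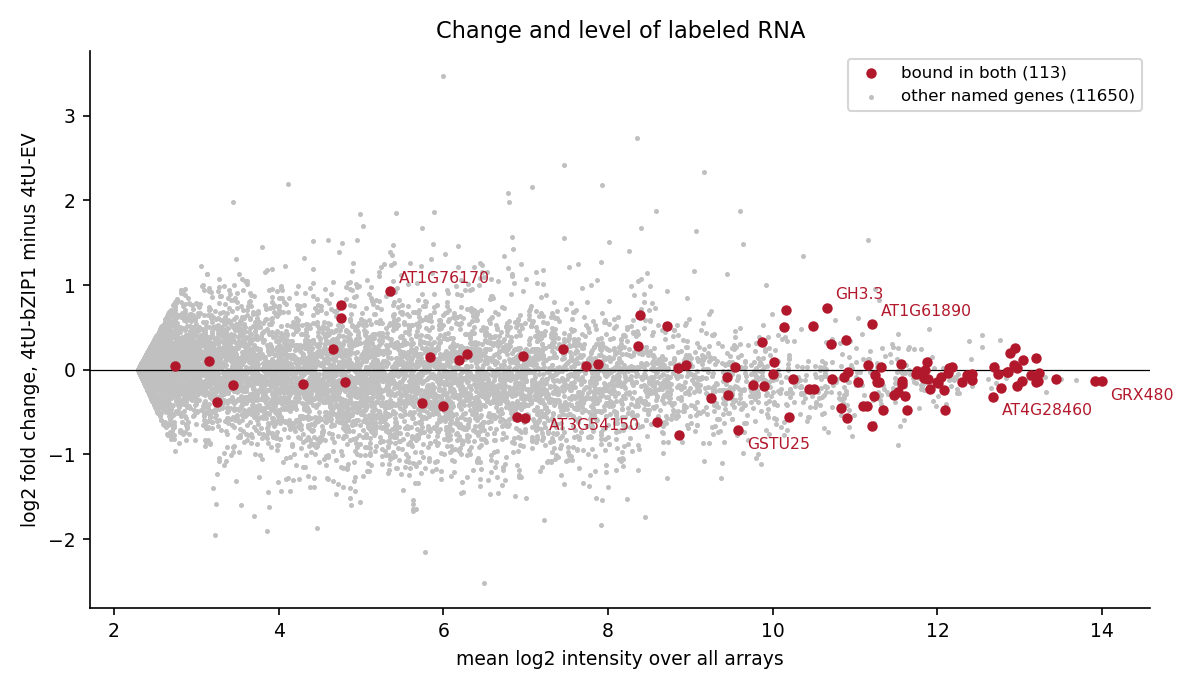
The log2 fold change (4tU-bZIP1 minus 4tU-EV) against the mean log2 intensity over all arrays, for 113 genes bound in both replications and 11650 other named genes. The bound genes crowd at the right, where values of both kinds lie close to 0, and none reaches a change of 1 in size.

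The shift was not uniform over the arrays. Relative to each gene's mean in 4tU-EV, the median of the bound genes on the 6 arrays of 4tU-bZIP1 was -0.09, 0.01, -0.17, -0.06, -0.06 and -0.04. On the 5 arrays of 4tU-EV it was 0.15, -0.06, -0.01, -0.02 and -0.08. The groups overlapped, since 4tU-EV replicates 2 and 5 each lay lower than 4 of the 4tU-bZIP1 arrays. Of the 113 bound genes, 31 had their lowest value of all arrays on 4tU-bZIP1 replicate 1 and 17 their highest, while 26 had their highest on 4tU-EV replicate 1. Such counts were not taken over all features. 4tU-bZIP1 replicate 1 also had the lowest median correlation over all features, 0.88. On 4tU-EV replicate 1, bound and other named genes at a mean log2 level of at least 10 both had a median of 0.16 above their 4tU-EV mean. The part of single arrays in the values below was tested by leaving each one out.

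**Figure D3:**
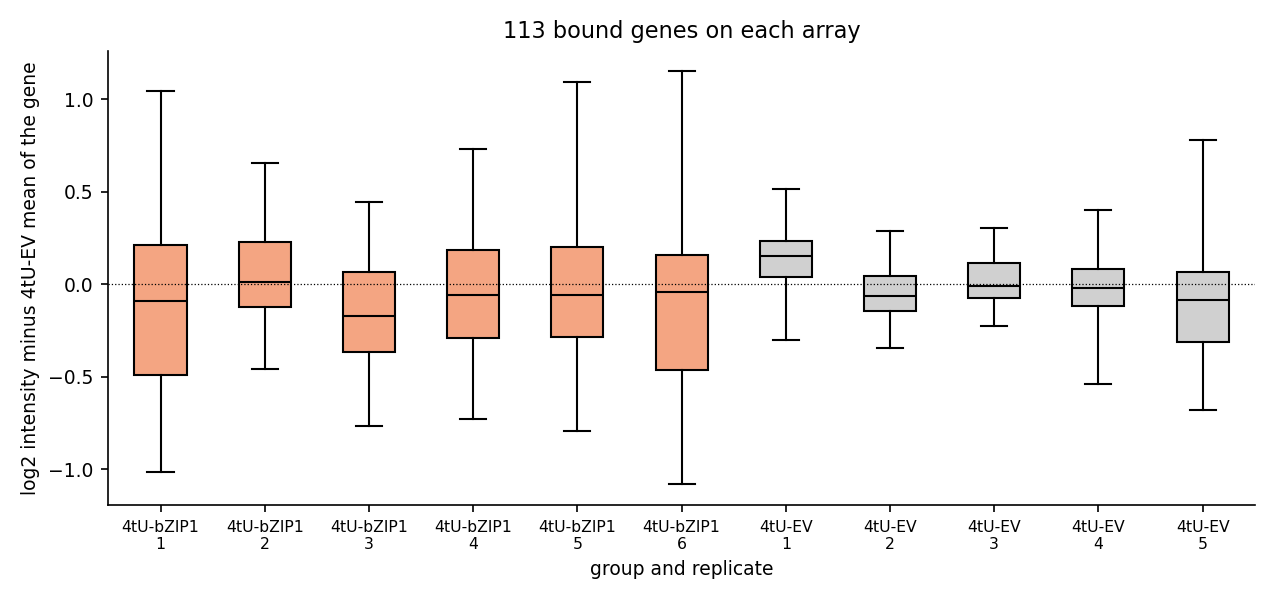
Log2 intensity of the 113 bound genes on each array minus the mean of the same gene over the 4tU-EV arrays. Boxes span the quartiles with the median as a line, and whiskers run from the 5th to the 95th percentile. The medians stay between -0.17 and 0.15, and boxes of 4tU-EV are narrower in part because those arrays enter the mean they are set against.

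Among genes with higher values in 4tU-bZIP1, the smallest p belonged to GH3.3, an enzyme gene that joins auxin to amino acids and is itself induced by auxin. Its intensity was 1568 at the lowest, 2143 at the median and 2305 at the highest in 4tU-bZIP1, against 1604, 789, 1067, 1463 and 1405 in 4tU-EV. Only 4tU-bZIP1 replicate 3 fell below the highest 4tU-EV array. The log2 fold change was 0.73 ± 0.18 (SE), with an adjusted p of 0.49 from limma and an exact permutation p of 0.0065, where 0.0022 is the smallest possible. GH3.3 is on the study's own list of induced genes, which was drawn from the same arrays and is not independent of them.

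The second was AT1G69890, which encodes a protein of unknown function. It reached 1084 at the lowest, 1228 at the median and 1720.5 at the highest in 4tU-bZIP1, against 958, 1001, 1067, 1153 and 599 in 4tU-EV. Here 5 of the 6 4tU-bZIP1 arrays lay above every 4tU-EV array, and 4tU-EV replicate 5 stood well below the rest. The log2 fold change was 0.50 ± 0.18 (SE; adjusted p = 0.85 from limma; exact permutation p = 0.0087), and 0.34 without that array.

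AT2G25460, a C2 domain gene, averaged 1049.5 ± 153 in 4tU-bZIP1 and 834 ± 125 in 4tU-EV (SD, n = 6 and 5), and its log2 fold change was 0.33 ± 0.13 (SE). The other 6 genes that complete the 10 with the smallest p on this side after ORA47, described below, had unadjusted p-values from 0.069 to 0.15. In several of them 1 or 2 arrays stood above the rest. The highest 4tU-bZIP1 value of AT4G20860, a berberine bridge enzyme-like oxidoreductase gene, was 3595 on replicate 1, against a 4tU-bZIP1 median of 1440.0 and a 4tU-EV mean of 1189 ± 127, and its log2 fold change of 0.52 was 0.30 without that array. AT1G80850, a DNA glycosylase family gene, was highest on 4tU-bZIP1 replicates 5 and 6 and ranged from 782 to 3245 there, against 604 to 1186 in 4tU-EV. Its log2 fold change was 0.70 ± 0.36 (SE), and 0.46 without 4tU-bZIP1 replicate 6.

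On the lower side, AT4G28460, which has no known function by its annotation, had the smallest p. Its intensity was 5042 at the lowest, 6044 at the median and 6818 at the highest in 4tU-bZIP1, against 7466, 6595, 7216, 8252 and 7519 in 4tU-EV. All but 1 of the 4tU-bZIP1 arrays lay below every 4tU-EV array, and the log2 fold change was -0.32 ± 0.08 (SE), with an adjusted p of 0.51 from limma and an exact permutation p of 0.0065. It is the single bound gene on the study's list of repressed genes, which was drawn from these arrays too.

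A pair of genes for S-adenosylmethionine-dependent methyltransferases also lay on this side. By limma p, AT3G54150 came next after AT4G28460, while AT1G55450 (unadjusted p = 0.016 from limma) came after GSTU25 and AT1G19210. AT3G54150 had 261 at the lowest, 320.4 at the median and 389.5 at the highest in 4tU-bZIP1, against 707, 466, 516, 455 and 356 in 4tU-EV. In 5 of 6 arrays it was below every 4tU-EV array, and its log2 fold change was -0.62 ± 0.16 (SE; adjusted p = 0.53 from limma; exact permutation p = 0.0065). AT1G55450 averaged 1976 ± 556 in 4tU-bZIP1 and 3103 ± 806 in 4tU-EV (SD, n = 6 and 5), with a log2 fold change of -0.67 ± 0.23 (SE), and its groups overlapped more widely.

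**Figure D4:**
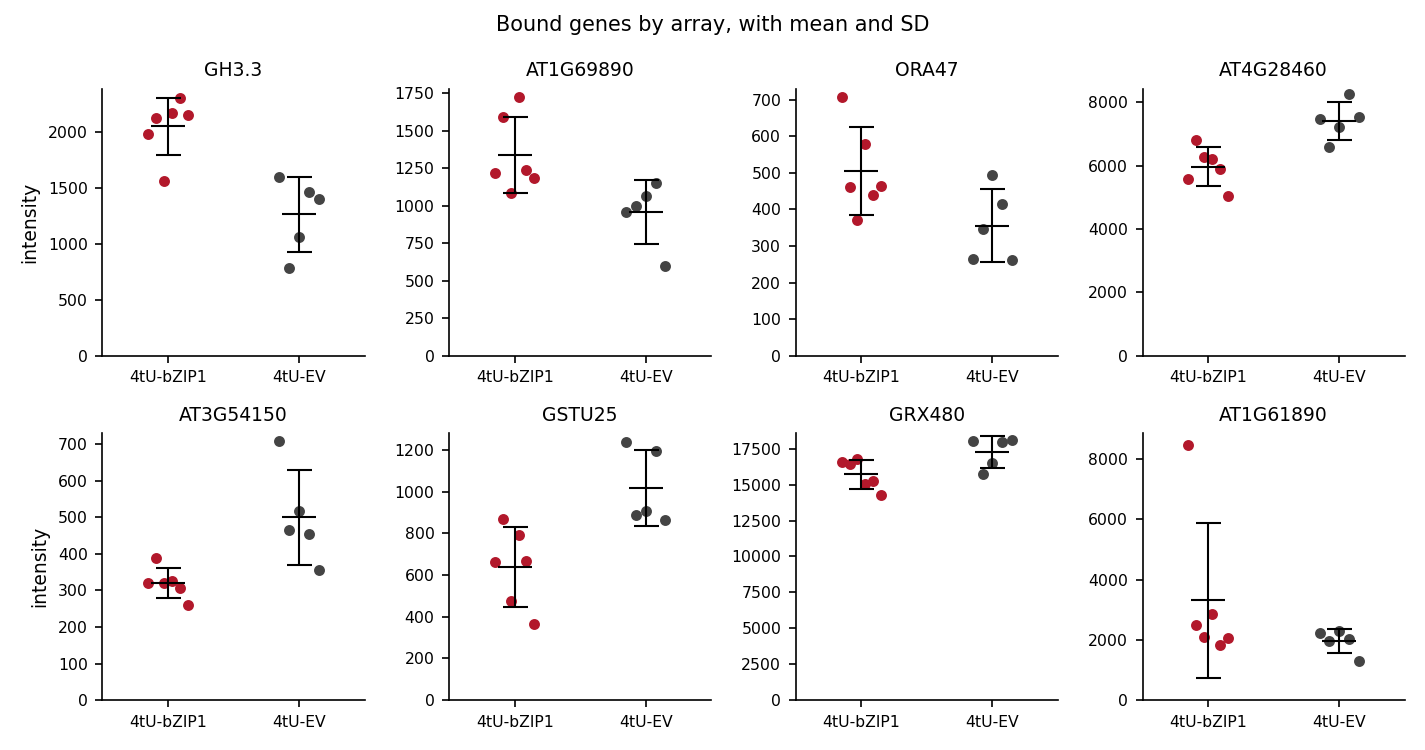
Intensity on each array of 8 bound genes, 4tU-bZIP1 at the left of each panel and 4tU-EV at the right, with the mean and SD (n = 6 and 5). The groups overlap in every panel, and the high point of AT1G61890, a MATE transporter gene, is 4tU-bZIP1 replicate 1.

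The bound genes fall into several functional groups, for which lists were drawn up from the annotation of the ChIP-Seq lists. Of the 113, 35 were in a list and 33 were annotated as of unknown function. No list held a gene past the threshold. The values below are given by role, starting from the regulators of transcription.

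Of 8 listed AP2/ERF factors 3 were measured. ORA47, which activates genes of jasmonate synthesis, had 372 at the lowest, 464 at the median and 707 at the highest in 4tU-bZIP1, against 266, 347, 494, 414 and 261 in 4tU-EV. The groups overlapped, with 2 of 6 4tU-bZIP1 arrays above every 4tU-EV array, and the log2 fold change was 0.52 ± 0.21 (SE; exact permutation p = 0.0498), and 0.27 with array weights. AT1G19210 and AT2G33710, whose DNA-binding domain is of the same family, lay the other way, with log2 fold changes of -0.42 ± 0.14 and -0.55 ± 0.25 (SE). AT1G19210 averaged 2008 ± 353 in 4tU-bZIP1 and 2678 ± 365 in 4tU-EV, and AT2G33710 averaged 1036 ± 350.0 in 4tU-bZIP1 and 1466 ± 269 in 4tU-EV (SD, n = 6 and 5). The family thus had values on both sides of 0, with adjusted p-values of 0.82 and 0.85. AT2G33710 was named after its values were seen.

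Other regulators showed less. Besides STZ, the C2H2 zinc finger gene AT3G53600 was the other measured member of 7 in that list, at 2911 ± 742 in 4tU-bZIP1 and 3552 ± 541 in 4tU-EV. Its log2 fold change was -0.31 ± 0.19 (SE), and -0.18 without 4tU-bZIP1 replicate 6. Of 8 other regulators, the homeodomain-like gene AT5G01380 and the myb-like gene AT1G25550 were measured, with log2 fold changes of 0.35 ± 0.38 and 0.09 ± 0.12 (SE). The value of AT5G01380 rests on 1 array, since it was at 6086 on 4tU-bZIP1 replicate 4, against a 4tU-bZIP1 median of 1764, and its log2 fold change was 0.04 without that array and 0.53 without 4tU-bZIP1 replicate 3. In the jasmonate list, of which 2 of 8 genes were measured, ORA47 was joined by AT2G38240, a 2-oxoglutarate-dependent oxygenase gene, at 1818 ± 216 in 4tU-bZIP1 and 1930.3 ± 169 in 4tU-EV.

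Signaling genes were mostly bright and had small differences. Of 11 listed calcium genes 3 were measured, and beside CML37 the EF-hand gene AT3G01830 had 2740.5 ± 442 in 4tU-bZIP1 and 3282 ± 439 in 4tU-EV, with -0.27 ± 0.13 (SE) as its log2 fold change and -0.15 with array weights. Of 8 kinases and phosphatases 3 were measured, with log2 fold changes from -0.10 for the kinase gene AT3G59350 to 0.06 for the phosphatase gene AT3G62260. The signs of these last genes turned when 4tU-EV replicate 1 was left out for AT3G59350 and when 4tU-bZIP1 replicate 2 was left out for AT3G62260.

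The U-box ubiquitin ligases PUB22, PUB23 and PUB19, of which PUB22 and PUB23 dampen immune and drought responses, were 3 of 8 listed and all lay below 0. PUB22 had 3465 at the lowest, 4033 at the median and 4096 at the highest in 4tU-bZIP1, against 4499.8, 4096, 4780.1, 4021 and 4486 in 4tU-EV. The groups overlapped at their edges, and the log2 fold change of -0.16 ± 0.06 (SE) had an adjusted p of 0.85 from limma. PUB23 and PUB19 had log2 fold changes of -0.05 ± 0.07 and -0.09 ± 0.16 (SE), both smaller than the spread of the arrays.

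Enzymes of redox control and detoxification came next. Of 10 redox genes 4 were measured, and beside GRX480 the peroxidase gene AT1G14550 was lower, with 2147 at the lowest, 4022 at the median and 4961 at the highest in 4tU-bZIP1, against 6335, 5316, 5191, 5437 and 4115 in 4tU-EV. In 4 of 6 arrays it was below every 4tU-EV array, with a log2 fold change of -0.47 ± 0.21 (SE; adjusted p = 0.85 from limma; exact permutation p = 0.037), and with -0.31 without 4tU-bZIP1 replicate 6, its lowest array. A second peroxidase gene, AT5G39580, and MSRB9, which repairs oxidized methionine, lay near 0, at -0.06 ± 0.09 and 0.03 ± 0.11 (SE).

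Of 19 detoxification and transport genes 5 were measured. GSTU25, a glutathione S-transferase gene, had 364 at the lowest, 665 at the median and 868 at the highest in 4tU-bZIP1, against 1236, 889, 906, 1192 and 865 in 4tU-EV. In 5 of 6 arrays it was below every 4tU-EV array, and the log2 fold change was -0.72 ± 0.23 (SE), with an adjusted p of 0.79 from limma and an exact permutation p of 0.013. The MATE transporter gene AT1G61890 had a log2 fold change of 0.54 ± 0.38 (SE), which rested on 4tU-bZIP1 replicate 1: there it read 8473, against a median of 2303 over the 4tU-bZIP1 arrays and a mean of 1964 ± 392 in 4tU-EV, and without that array the value was 0.22, and with array weights 0.15. A MATE gene that was brighter, AT5G52050, averaged 8766 ± 968 in 4tU-bZIP1 and 8056 ± 829 in 4tU-EV.

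Genes of dehydration, cell walls and berberine bridge enzyme-like proteins lay on both sides of 0. The dehydrin gene LTI30 averaged 4252 ± 1072 in 4tU-bZIP1 and 4408 ± 717 in 4tU-EV, and its sign changed with array weights and with single arrays left out. AT5G13200, a GRAM domain gene, was at -0.17 ± 0.11 (SE), which left 3 of 11 dehydration and cold genes measured and all 3 slightly below 0. Of 12 cell wall genes, the wall-loosening family gene EXLA1 averaged 8648 ± 1635 in 4tU-bZIP1 and 7157 ± 489 in 4tU-EV, with log2 fold change 0.25 ± 0.13 (SE), and the xyloglucan endotransglucosylase gene XTH18 averaged 8035 ± 612 in 4tU-bZIP1 and 8835 ± 874 in 4tU-EV. Of 6 berberine bridge enzyme-like genes 3 were measured, with log2 fold changes of 0.52 for AT4G20860, given above, -0.14 ± 0.24 (SE) for AT4G20830, above 0 without 4tU-bZIP1 replicate 5, and 0.04 ± 0.34 (SE) for AT1G30740. None of the 11 listed genes of carbon and amino acid metabolism was measured.

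In 3 families the bound member lay above the median level of the relatives that could be read. XTH18, at a mean log2 level of 13.03, compares with a median of 2.68 over 7 other XTH genes, GSTU25 at 9.58 with 2.85 over 10 other tau and phi glutathione S-transferase genes, and CML37 at 13.23 with 4.03 over 7 other CML genes. Each is 1 bound gene, and since probe sets differ in affinity the levels are described and not tested. The median log2 fold changes were -0.11 over the other XTH genes, 0.01 over the other glutathione S-transferase genes and -0.09 over the other CML genes. None of these relatives was past the threshold.

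The 33 genes of unknown function had a median intensity of 3180.2 and a median log2 fold change of -0.11. At an unadjusted p under 0.05, 1 of them was higher and 3 were lower, where 1.51% and 3.23% of all features were. They include AT1G25400, at 8027 ± 395 in 4tU-bZIP1 and 7057 ± 1013 in 4tU-EV, and AT2G41730, at 7524 ± 655 in 4tU-bZIP1 and 8608 ± 681 in 4tU-EV. The probe set of AT2G41730 is the only 1 among the bound genes whose suffix marks shared sequence, so its signal may not be of this gene alone. AT2G18210 was at 2807 ± 689 in 4tU-bZIP1 and 3870.4 ± 728 in 4tU-EV. In all of these the groups overlapped, and the log2 fold change of AT1G25400, 0.20, was 0.095 without 4tU-EV replicate 5.

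Many bound genes lie next to one another. By the RefSeq order of protein-coding genes, 56 of the 113 had an adjacent gene that was also on both lists. The study's methods assign to a peak the genes within 500 bp downstream of it, so that a pair of neighbours can be listed through 1 peak, and whether they shared one was not tested. All 9 bound genes with a mean log2 level under 5 were among these 56, as were 14 of the 33 at 12 and above. The dimmest was AT1G30740, a berberine bridge enzyme-like gene, at a mean intensity of 6.70. Beside AT5G15980, a pentatricopeptide repeat gene at 9.48, lies the cold-inducible gene KIN2. AT2G03750, a P-loop hydrolase family gene at 10.9, lies beside the sulfotransferase gene SOT12, and AT1G19190, a hydrolase family gene at 19.6, beside JAZ1, which encodes a repressor of jasmonate signaling. These neighbours are on both lists and were not measured here. The median intensity was 1135 for the 56 and 3017 for the 57 with no such neighbour.

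In 14 adjacent pairs both genes were measured, and 11 of these pairs differed by at least 3 in mean log2 level. No pair had both genes at 10 or above. CML37 had a mean intensity of 9580 (the power of 2 of the mean log2) and its neighbour AT5G42370, a calcineurin-like phosphoesterase gene, of 8.89. AT5G10695 had 11139, with AT5G10690, a pentatricopeptide repeat gene, at 27.1 on one side and AT5G10700, a peptidyl-tRNA hydrolase gene, at 328 on the other. AT1G19020 had 15417 and AT1G19025, a DNA repair metallo-beta-lactamase family gene, 118. AT1G61890 had 2364 and PPR336, a pentatricopeptide repeat gene, 27.9. Some genes are in more than 1 pair.

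The changes of the dim neighbours were poorly measured. AT5G10690 had a log2 fold change of 0.77 with an SE of 0.51, and AT5G42370 one of 0.10 with an SE of 0.44, while CML37 had -0.13 with an SE of 0.08. The median log2 fold change was -0.02 for the 56 bound genes with an adjacent bound gene and -0.14 for the 57 without.

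**Figure D5:**
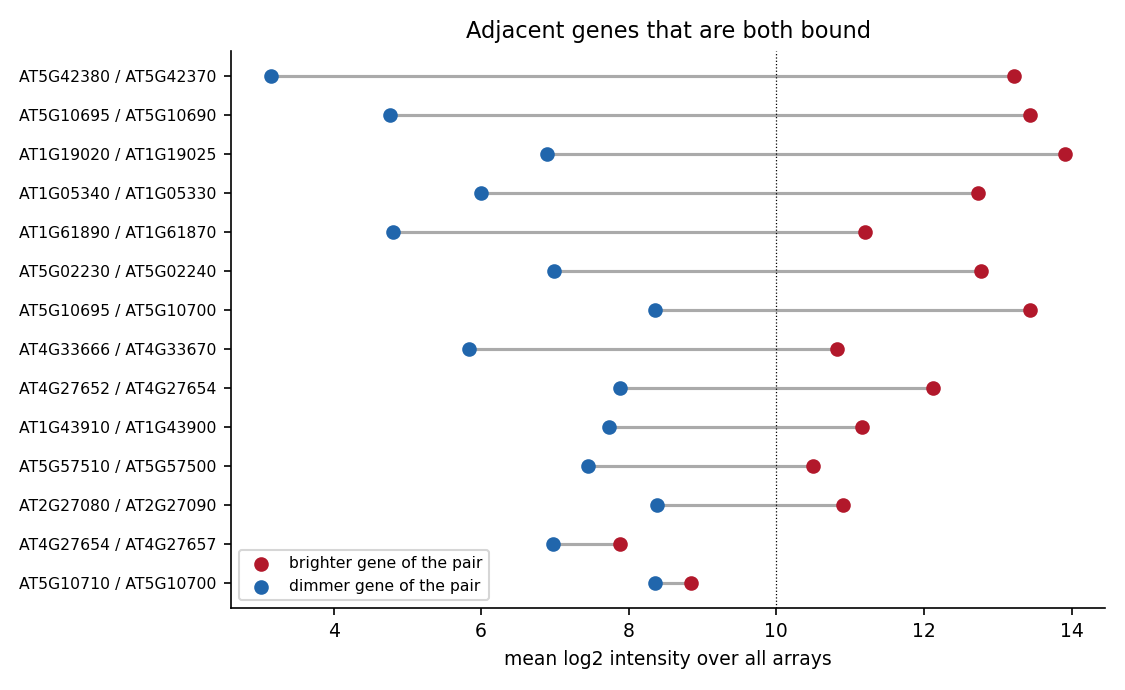
Mean log2 intensity over all arrays of the brighter and the dimmer gene in the 14 adjacent pairs of bound genes that were both measured. The dotted line marks a level of 10, which no dimmer gene reaches.

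The change of genes on 1 list alone is given beside that of genes on both. The log2 fold changes of the 113 ran from -0.77 to 0.93, those of replication 1 only from -1.45 to 1.53, with 8 genes at 1 or more in size, and those of replication 2 only from -0.69 to 1.31, with 1 such gene. The groups of arrays did not overlap in 5 of the 226 genes of replication 1 only that were higher and 2 that were lower. This was seen in none of the 53 of replication 2 only. Over all features the shares were 0.405% higher and 0.451% lower. The lists also differ in level, as given above, and were not compared at like levels. The median log2 fold change was -0.04 for the 226 genes of replication 1 only and -0.12 for the 53 of replication 2 only. At an unadjusted p under 0.05, 10 of the 226 (4.42%) were higher and 18 (7.96%) lower, and 1 of the 53 was higher and 4 lower. Of all features, 1.51% were higher and 3.23% lower. The 6 genes set aside by the rule are in neither group of genes on 1 list. Of the 6, 5 are on the replication 1 list and 3 were past the threshold. Among the genes kept in the groups, a single gene was past the threshold. It was AT1G68440, on the replication 1 list, at 3282 ± 365 in 4tU-bZIP1 and 1724 ± 388 in 4tU-EV (SD, n = 6 and 5), with a log2 fold change of 0.95 ± 0.15 (SE) and an adjusted p of 0.064 from limma. By its annotation AT1G25400, a bound gene at 0.20 ± 0.10 (SE), is closest in sequence to it. Whether genes on both lists and genes on 1 list differ was not tested.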

How the data were processed

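The deposited table holds a linear intensity for each of 22810 probe sets and 11 arrays, which the authors made by GCRMA (no version given in the sources used here) from amplified pulled-down RNA; log2 was taken with nothing added. The 64 control probe sets and 2307 that were constant were left out, as were probe sets of several genes. Left out too were 330 unnamed probe sets whose suffix marks shared sequence, while named ones with such a suffix were kept. For each gene the probe set with the highest mean was kept, which left 11767 named genes and 7756 unnamed probe sets, of which 19523 in all were tested. The number of arrays limits the precision.

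4tU-bZIP1 (6 arrays) was compared with 4tU-EV (5) by limma 3.58.1 in R 4.3.3 with default settings, at an adjusted p under 0.1, the 10% cutoff of the methods. Single genes also had an exact two-sided permutation test over 462 divisions. Lists were described by counts and medians and not tested. The fit was checked on simulated data. Other steps used Python 3.11.15, pandas 2.3.3 and matplotlib 3.10.9.

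Genes were named if they were past the threshold, among the 10 smallest p-values in each direction, among the 2 smallest of a list or among the 5 brightest. This rule gave 38 genes. Values of other genes are printed outside it, for further list members, the ends of the range of change, dim genes, neighbours and AT1G68440. The bound genes, lists and rules were chosen with earlier results of these data known. Names and neighbours came from RefSeq (13436 of 13513 single-gene probe sets matched). Alternatives were the methods' one-way test, a trend with robust prior, array weights, an adjusted p under 0.05, median centring, quantile normalization, a minimum mean log2 of 5, a floor of 16, named genes only, all varying probe sets, replicate numbers as a block, leaving out each array, and each ChIP-Seq list alone. Replicates 1 to 5 without the block and genes at a mean log2 of at least 10 were added after the data were seen. Promoter motifs were not searched.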

Additional observations from a re-analysis of the deposited data

Results flagged for a closer look

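In 78 groups of arrays (38 named genes and the median of the bound genes, in each of 4tU-bZIP1 and 4tU-EV), 5 had 1 array far from the others, and chance alone gives about 1 in 20. AT1G69890 read 599 on 4tU-EV replicate 5, against 958 to 1153 on the other 4tU-EV arrays. AT1G25400 read 5252 on the same array, against 7361 to 7580.3. The median intensity of the bound genes was 1980.1 on 4tU-EV replicate 5 too, against 2498 to 2673 on the others. PUB22 read 3465 on 4tU-bZIP1 replicate 5, against 3860.1 to 4096 on the other 4tU-bZIP1 arrays. The MATE transporter gene AT1G61890 read 8473 on 4tU-bZIP1 replicate 1, against 1829.7 to 2876.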

How the results depend on the processing

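No bound gene passed the threshold under any alternative fit, the smallest adjusted p being 0.22. In what follows, every gene of a list means all but the 6 genes set aside by the rule. With every gene of replication 1 counted as bound in this sense, 1 gene passed (AT1G68440). Of the 6 set aside, 5 are on the replication 1 list and 3 were past the threshold, so this count leaves out genes of that list. The counts at an unadjusted p under 0.05, 4 higher and 13 lower, were 10 higher with array weights, 8 and 8 with each array centred on its median, 1 and 3 at a minimum mean log2 of 5, 14 and 31 with every gene of replication 1, and 2 higher among genes at a mean log2 of at least 10 (chosen after seeing the data). With 1 array left out they ran from 2 to 6 higher and from 6 to 15 lower (2 higher without 4tU-EV replicate 2; 6, 8 and 8 lower without 4tU-EV replicates 1, 3 and 4). The median log2 fold change of bound minus other genes, -0.08, was 0.049 at a minimum mean log2 of 5 and 0.016 at a mean log2 of at least 10. The difference in median level was taken here over the 4tU-EV arrays alone, where the medians were 11.28 and 3.19, and not over all arrays as above. This difference, 8.08, was 4.47 at a minimum mean log2 of 5, 5.83 with a floor of 16, 0.91 at a mean log2 of at least 10, 6.54 with every gene of replication 1 and 7.34 with every gene of replication 2. The cause was not tested, beyond the fewer or other genes that these settings compare.

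Replicate numbers gave little sign of pairing over all features. Same-numbered deviations from the group means correlated there at 0.01 to 0.11, and 1 of 5 pairs was over 0.1. Over the bound genes alone they ran from -0.19 to 0.36, with 2 of 5 over 0.1. The bound-gene deviations of 4tU-bZIP1 replicates 5 and 6 correlated at 0.55, and whether these arrays share a batch was not tested. With the replicate block (replicates 1 to 5) 0 bound genes passed, and 4 were higher and 8 lower at an unadjusted p under 0.05, against 3 and 10 without it.

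Of 836 values of the 38 named genes, 828 kept their direction and side of the threshold. The 8 that turned were those of STZ (0.021 with array weights and 0.011 centred), LTI30 (0.020 with array weights, and -0.18 to 0.065 with 1 array left out, above 0 without 4tU-bZIP1 replicate 3 or, at 0.010, 4tU-EV replicate 1), AT3G59350 (-0.28 to 0.033 with 1 array left out, above 0 without 4tU-EV replicate 1), AT3G62260 (-5.9e-05 to 0.15, below 0 without 4tU-bZIP1 replicate 2) and AT4G20830 (-0.23 to 0.014, above 0 without 4tU-bZIP1 replicate 5).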
